A study of Mus musculus with 6 samples.

Results

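The D-type cyclins and the inhibitors of the kinases they activate were read in mouse hippocampal neurospheres grown with norepinephrine or with KCl. Of the 10 genes of this group, 9 were measured under a single gene symbol, of 19937 genes named on the array. Where a gene had several probe sets, the one brightest on average over all 6 arrays stands for it. Cdkn1a, which encodes p21, was not analysed here, because its probe set carries a second gene symbol. The measured genes were the D-type cyclins Ccnd1, Ccnd2 and Ccnd3, the CIP/KIP inhibitors Cdkn1b and Cdkn1c, and the INK4 inhibitors Cdkn2a, Cdkn2b, Cdkn2c and Cdkn2d. They were chosen by name, with earlier results of these data known.

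Primary neurospheres, floating colonies formed by dividing neural precursor cells, were grown from the hippocampus of male C57BL/6J mice, which were adults of 8 to 12 weeks. One group of 3 samples was grown with 10 µM norepinephrine, a monoamine transmitter, and the other group of 3 samples with 15 mM potassium chloride (KCl), which depolarises neurons. All cultures also received EGF and bFGF, growth factors known to induce D-type cyclins, and the spheres were collected on day 14. The sample titles of both groups call them big neurospheres, so the values stand for big spheres only. The labels call the samples biological replicates without saying that each came from a separate mouse or culture, so p-values here measure the spread between these samples. No untreated group was analysed here, and each difference is norepinephrine minus KCl in log2 units.

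D-type cyclins connect growth factor signals to the cell cycle. They bind and activate the kinases Cdk4 and Cdk6, which phosphorylate the retinoblastoma protein and release E2F factors to drive entry into S phase. INK4 proteins bind Cdk4 and Cdk6 and keep the cyclins off, whereas CIP/KIP proteins bind complexes of cyclins and kinases and restrain above all those that hold Cdk2. In neural precursors of the mouse these inhibitors are known for limiting self-renewal and for holding stem cells in quiescence.

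The treatment groups did not overlap in 2 of the 9 genes, the INK4 genes Cdkn2a and Cdkn2c, against 9.03% of all named genes. Cdkn2a and Cdkn2b are next to each other on chromosome 4, with 0 protein-coding genes between them in the GRCm38.p6 assembly, and Cdkn2c lies elsewhere on the same chromosome. The windows printed here run from 250 bases before to 50 bases after a gene's start, from RefSeq on GRCm38.p6. They are shown because Cdkn2a has separate start sites for its products, because its neighbour Cdkn2b stood on the other side of 0, and because Cdkn2c was the member whose groups were apart in the opposite direction. All lie on the minus strand and read 5′ to 3′ along the transcript. Capitals mark matches on either strand to TGACGTCA (the cAMP response element, CRE), CACGTG (an E-box) and GGGCGG (a GC box).
Cdkn2a, upstream start, chr4:89294570-89294869: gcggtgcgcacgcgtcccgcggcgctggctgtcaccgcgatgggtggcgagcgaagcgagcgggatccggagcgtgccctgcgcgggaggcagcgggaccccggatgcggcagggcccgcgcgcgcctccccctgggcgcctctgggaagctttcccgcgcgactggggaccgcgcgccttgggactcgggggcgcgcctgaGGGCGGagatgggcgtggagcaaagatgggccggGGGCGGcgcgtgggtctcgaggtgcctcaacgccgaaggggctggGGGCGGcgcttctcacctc
Cdkn2a, downstream start, chr4:89282143-89282442: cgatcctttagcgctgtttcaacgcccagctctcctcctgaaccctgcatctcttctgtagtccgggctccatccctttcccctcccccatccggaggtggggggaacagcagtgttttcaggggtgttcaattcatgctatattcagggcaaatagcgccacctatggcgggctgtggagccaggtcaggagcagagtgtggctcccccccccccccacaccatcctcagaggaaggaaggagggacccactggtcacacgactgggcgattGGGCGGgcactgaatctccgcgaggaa
Cdkn2b, chr4:89310983-89311282: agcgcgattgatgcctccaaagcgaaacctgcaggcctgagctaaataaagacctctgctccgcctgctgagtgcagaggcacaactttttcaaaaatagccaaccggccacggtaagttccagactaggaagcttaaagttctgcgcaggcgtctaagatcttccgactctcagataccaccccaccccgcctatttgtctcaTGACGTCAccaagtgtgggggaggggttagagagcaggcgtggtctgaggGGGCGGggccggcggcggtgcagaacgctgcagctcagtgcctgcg
Cdkn2c, upstream start, chr4:109666707-109667006: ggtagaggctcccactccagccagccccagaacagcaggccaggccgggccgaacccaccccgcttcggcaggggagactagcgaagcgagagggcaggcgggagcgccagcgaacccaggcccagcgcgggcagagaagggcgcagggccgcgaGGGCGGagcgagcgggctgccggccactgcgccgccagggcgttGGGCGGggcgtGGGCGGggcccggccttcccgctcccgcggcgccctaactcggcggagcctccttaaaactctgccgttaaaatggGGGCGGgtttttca
Cdkn2c, downstream start, chr4:109665323-109665622: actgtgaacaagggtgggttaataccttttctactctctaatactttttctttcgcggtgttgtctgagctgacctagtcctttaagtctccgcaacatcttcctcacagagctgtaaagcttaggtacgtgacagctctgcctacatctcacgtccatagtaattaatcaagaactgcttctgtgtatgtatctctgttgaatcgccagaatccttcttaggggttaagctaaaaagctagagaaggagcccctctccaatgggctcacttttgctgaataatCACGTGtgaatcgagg

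The full CRE, the element bound by the cAMP-responsive factor CREB, occurred once in these windows, in that of Cdkn2b, where its first base lies at position -46 from the start. Of 32851 promoter windows in the RefSeq table, 1.79% held it. The E-box occurred once, in the downstream Cdkn2c window, and 7.15% of all windows held one. GC boxes numbered 3 and 1 in the upstream and downstream Cdkn2a windows, 1 in that of Cdkn2b, and 4 and 0 in the upstream and downstream Cdkn2c windows, while 35.7% of all windows held at least one. The E2F letters TTTCGCGC and TTTGGCGC, searched on both strands, were in none of them and in 0.813% of all windows. Among the measured members, 6 had a window in the table, 9 windows in all, and the CRE letters were in no other of these 9. GC content was 77% in the upstream Cdkn2a window and 60.3% in the downstream one, against a median of 52.7% over all windows. These matches describe letters only.

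Cdkn2a encodes 2 proteins from overlapping reading frames, the INK4 inhibitor p16 and the Mdm2 inhibitor p19Arf, whose transcripts begin at separate starts and share their later exons. Its probe set, 10514340, is annotated to transcripts of both, so its value does not separate them. On norepinephrine replicates 1 to 3 it read 6.96, 6.84 and 6.73, whereas KCl replicates 1 to 3 gave 7.33, 7.58 and 7.17. Every norepinephrine array was below every KCl array. The mean over the 6 arrays, 7.10, was the lowest among the members, at percentile 48.4 of all named probe sets. Its signal over background could not be assessed. The means were 6.84 ± 0.12 with norepinephrine and 7.36 ± 0.21 with KCl (SD, n = 3 each), a difference of -0.52 ± 0.19 (SE), or 0.699-fold. The 95% interval of this difference was -0.95 to -0.08, and its unadjusted p in limma was 0.026, the smallest among the members. Over all probe sets it did not pass (adjusted p = 0.939 by limma with Benjamini-Hochberg adjustment).

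Cdkn2c encodes p18, an INK4 protein known in mice for restraining the division of progenitor cells. It read 9.23, 9.29 and 9.21 on norepinephrine replicates 1 to 3, against 8.73, 9.08 and 8.81 on KCl replicates 1 to 3. Here every norepinephrine array was above every KCl array. The SD was 0.042 among norepinephrine arrays and 0.18 among KCl arrays. The difference was 0.37 ± 0.18 (SE), with an interval of -0.05 to 0.78 and an adjusted p of 0.939 in limma.

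Cdkn2b encodes p15, the INK4 protein that TGF-beta is known to induce. It read 9.11, 8.79 and 8.57 on norepinephrine replicates 1 to 3 and 8.82, 8.39 and 8.44 on KCl replicates 1 to 3. KCl replicate 1 fell among the norepinephrine values, so the groups overlapped. The difference was 0.27 ± 0.22 (SE), with an interval of -0.23 to 0.77 (adjusted p = 0.939, limma). Without KCl replicate 1 it was 0.41 ± 0.19, with an interval of -0.031 to 0.85, and all norepinephrine values then lay above the 2 KCl values left. It was 0.13 when norepinephrine replicate 1 was left out and 0.13 after a further quantile normalization of the arrays. The neighbouring genes Cdkn2a and Cdkn2b thus had differences of opposite sign on all 6 arrays and also without KCl replicate 1, where that of Cdkn2a was -0.53 ± 0.19.

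Cdkn2d encodes p19Ink4d, an INK4 protein known in mice for keeping neurons out of the cell cycle, and unrelated to p19Arf. Its readings were 7.12, 7.52 and 7.25 with norepinephrine and 7.13, 7.24 and 6.96 with KCl. The groups overlapped, and norepinephrine replicate 2 was the highest array. The difference of 0.19 ± 0.20 (SE) had an interval of -0.26 to 0.63 (adjusted p = 0.939, limma), and without norepinephrine replicate 2 it was 0.074.

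**Figure D1:**
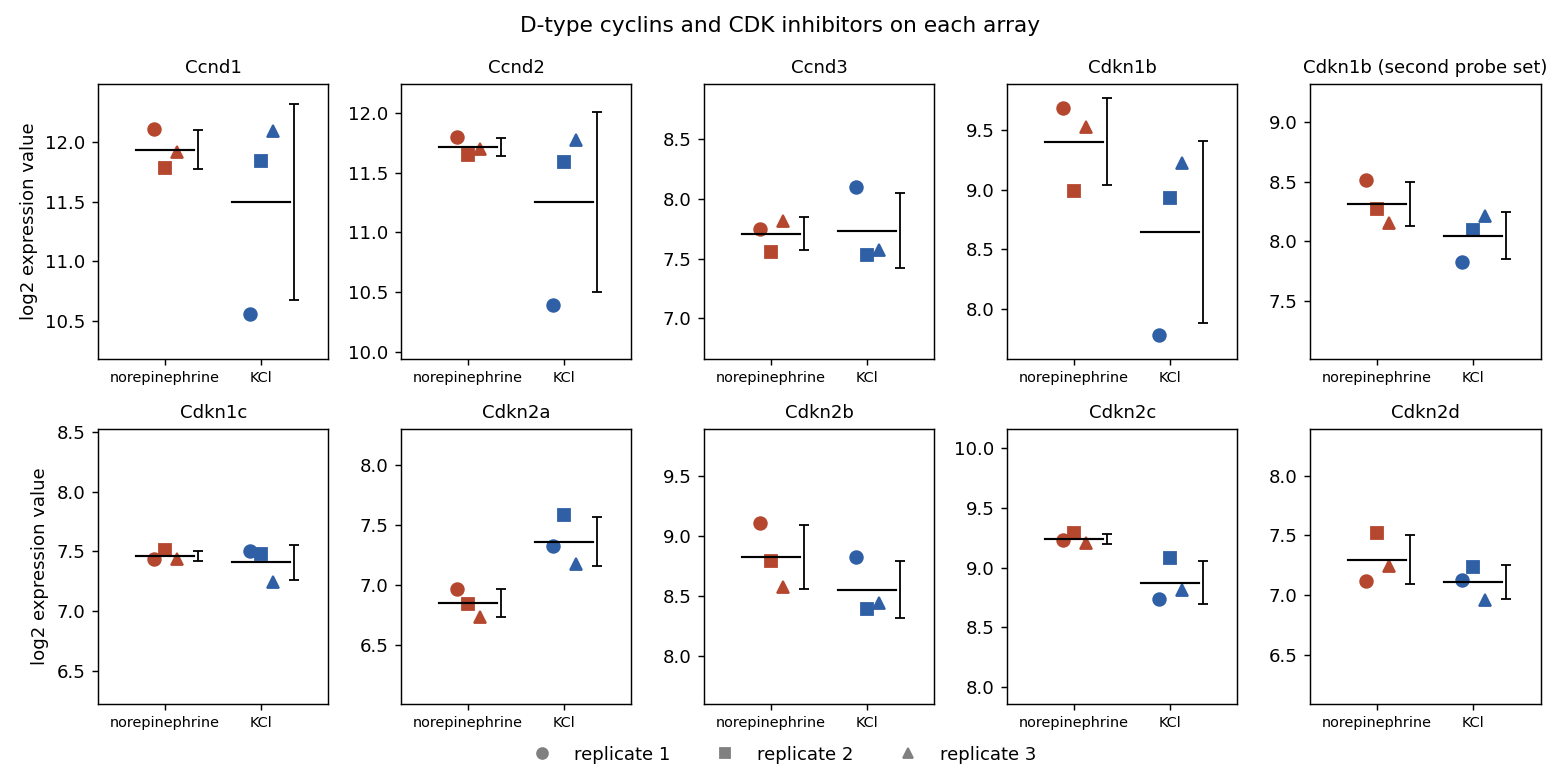
Log2 expression values of the 10 probe sets of the 9 measured genes on each array, norepinephrine in red on the left and KCl in blue on the right of each panel. Marker shapes give the replicate number, horizontal lines the group mean and bars ± 1 SD (n = 3), and every panel spans the same number of log2 units. The groups are apart for Cdkn2a and Cdkn2c, and KCl replicate 1 (blue circle) lies far below all other arrays for Ccnd1, Ccnd2 and the brighter Cdkn1b probe set.

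Cdkn1b encodes p27, the CIP/KIP inhibitor that accumulates in cells leaving the cycle. On all 6 arrays its brighter probe set had the largest difference among the 9 genes, at 0.75 ± 0.37 (SE), or 1.69-fold. That rank went to Cdkn2a without KCl replicate 1, and also with the median over probe sets, which gave 0.51 for Cdkn1b and -0.52 for Cdkn2a. This probe set, 10542317, read 9.69, 8.99 and 9.52 on norepinephrine replicates 1 to 3 and 7.79, 8.93 and 9.23 on KCl replicates 1 to 3. Norepinephrine replicate 2 lay below KCl replicate 3, and KCl replicate 1 stood more than a log2 unit under every other array. The interval of the difference was -0.09 to 1.60 (adjusted p = 0.939, limma). Without KCl replicate 1 it was 0.32 ± 0.23, with an interval of -0.19 to 0.84, smaller than the differences of Cdkn2a (-0.53) and Cdkn2b (0.41) on the same arrays.

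The other Cdkn1b probe set, 10542310, gave a smaller difference in the same direction. It read 8.51, 8.27 and 8.15 with norepinephrine and 7.83, 8.10 and 8.21 with KCl, which overlapped, and differed by 0.26 ± 0.20 (SE). This was 0.16 ± 0.18 without KCl replicate 1. Cdkn1c, which encodes p57 and is expressed from the maternal allele, read 7.44, 7.51 and 7.43 with norepinephrine and 7.50, 7.48 and 7.24 with KCl. These values varied least of all members, with an SD of 0.1 over the 6 arrays. The difference was 0.052 ± 0.18 (SE), with an interval of -0.36 to 0.46, so a difference of 1 log2 unit either way lies outside it.

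Ccnd1 and Ccnd2, the D-type cyclins associated with dividing precursors of the mouse brain, were alike from array to array. Ccnd1 read 12.11, 11.78 and 11.91 on norepinephrine replicates 1 to 3 and 10.56, 11.84 and 12.09 on KCl replicates 1 to 3. Ccnd2, which adult hippocampal neurogenesis in mice is known to need, read 11.80, 11.65 and 11.70 with norepinephrine and 10.39, 11.59 and 11.78 with KCl. In both genes KCl replicates 2 and 3 lay among or next to the norepinephrine values, and KCl replicate 1 alone was low.

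On all 6 arrays the difference was 0.44 ± 0.37 (SE) for Ccnd1, with an interval of -0.40 to 1.28, and 0.46 ± 0.34 for Ccnd2, with an interval of -0.31 to 1.24 (adjusted p = 0.939 for each, limma). Without KCl replicate 1 the Ccnd1 difference was -0.028 ± 0.18, with an interval of -0.43 to 0.38. The Ccnd2 difference was then 0.033 ± 0.16, with an interval of -0.34 to 0.40. On those 5 arrays a 2-fold difference in either direction lies outside both intervals.

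Ccnd3, the third D-type cyclin, had readings of 7.75, 7.56 and 7.82 with norepinephrine and 8.10, 7.53 and 7.58 with KCl. For this gene KCl replicate 1 was the highest of all arrays instead of the lowest. The difference was -0.026 ± 0.22 (SE), with an interval of -0.52 to 0.47 (adjusted p = 0.98, limma). It was 0.16 ± 0.17 without KCl replicate 1.

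**Figure D2:**
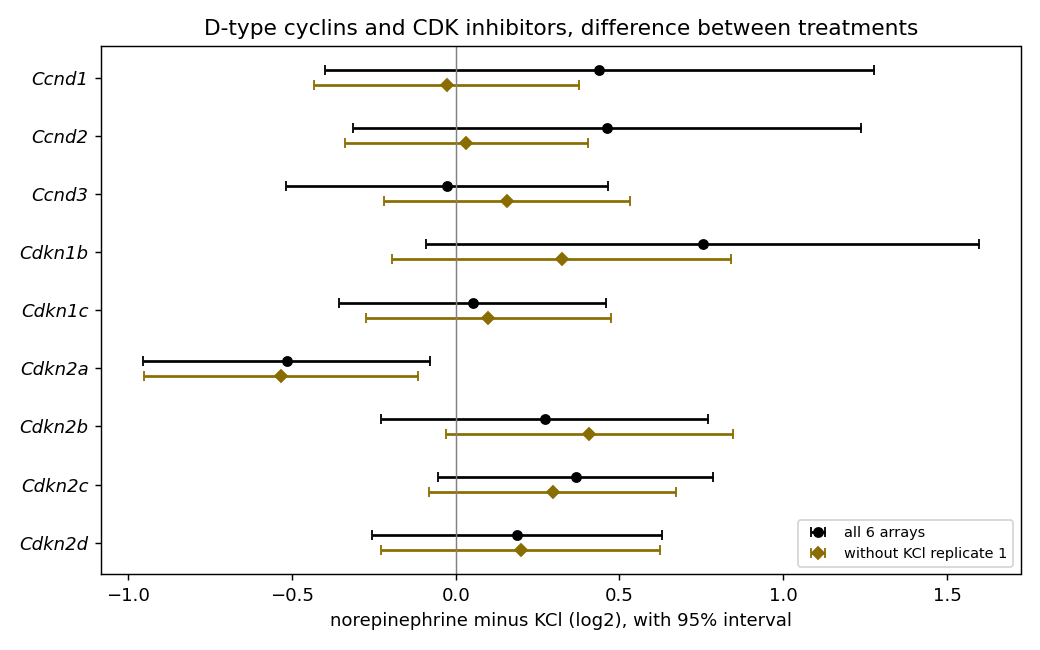
Norepinephrine minus KCl in log2 units for each gene, with 95% intervals from limma, on all 6 arrays (black circles) and without KCl replicate 1 (brown diamonds). The intervals of Ccnd1, Ccnd2 and Cdkn1b shorten and their differences move toward 0 without that array, while Cdkn2a stays at -0.52 and -0.53.

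Of the whole group, 7 of the 9 genes were higher with norepinephrine and Ccnd3 and Cdkn2a were lower, with a median difference of 0.27. Over all named genes 37.8% were higher and the median was -0.075. Without KCl replicate 1 the count was 7 of 9 with other members, since Ccnd1 was then lower and Ccnd3 higher, and the median was 0.16, where 52.7% of all genes were higher. The rule on adjusted p called 0 of the 9 genes and 0% of 21640 probe sets, with 0.939 as the lowest adjusted p of a member. It again called 0 of 9 without KCl replicate 1, and 0.0185% of probe sets. By an unadjusted p under 0.05, limma gave 1 of the 9 genes, Cdkn2a, where 3.18% of all genes had such a p. This was again 1 of 9 without KCl replicate 1, where 4.37% of all genes had such a p. The groups were apart with norepinephrine higher in 1 of 9 genes, against 4.44% of all genes, and with norepinephrine lower in 1 of 9, against 4.58%. Counts of 1 or 2 among 9 genes do not set the members apart from the array as a whole.

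The array of KCl replicate 1 had a narrower spread of values than the others, with an SD of 1.38 log2 units across named probe sets, where the other 5 arrays had 1.62 to 1.78. Relative to the mean of KCl replicates 2 and 3, probe sets with means between 11 and 12 on the other 5 arrays read lower on it by a median of -0.71, and those between 6 and 7 read higher by 0.50. Ccnd1 and Ccnd2 lie in the first of these ranges and were at -1.40 and -1.29. Cdkn1b, at -1.29, and Cdkn2c, at -0.21, lie between 9 and 10, where the median was -0.64. Cdkn2b was at 0.41 in a range whose median was -0.36. The 4 members between 7 and 8 had values of 0.55 for Ccnd3, 0.14 for Cdkn1c, -0.05 for Cdkn2a and 0.032 for Cdkn2d, against a median of 0.16. A further quantile normalization, which equalises the distributions of the arrays, left differences of 0.28 for Ccnd1, 0.30 for Ccnd2, 0.72 for Cdkn1b, 0.24 for Cdkn2c, 0.13 for Cdkn2b and -0.43 for Cdkn2a. The part of this array's spread in the cyclin and Cdkn1b differences was not tested beyond these values.

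**Figure D3:**
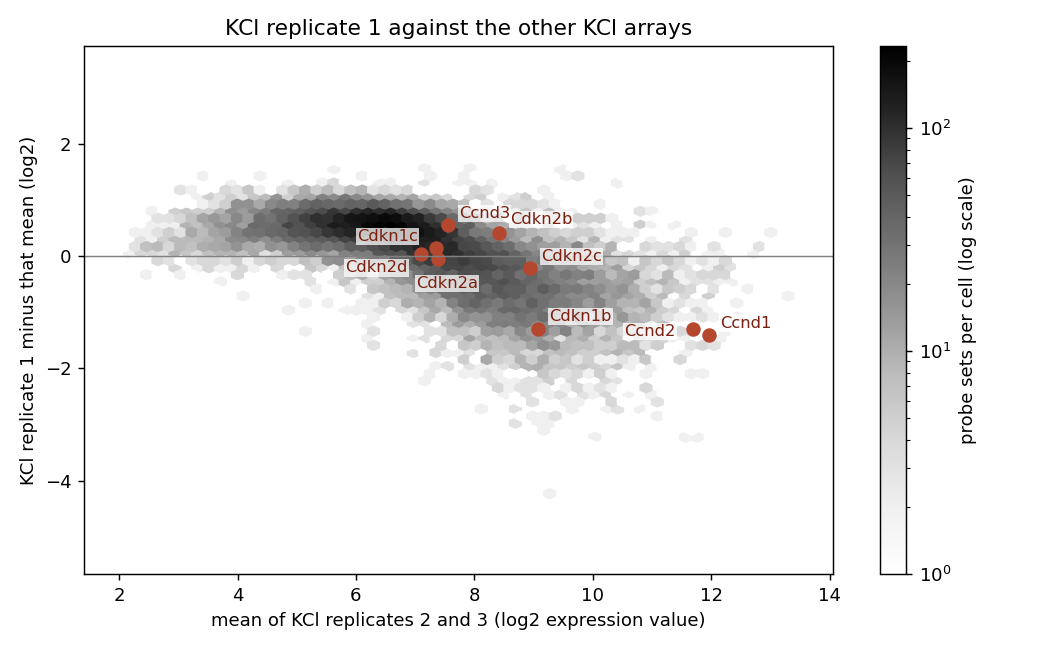
KCl replicate 1 minus the mean of KCl replicates 2 and 3 (log2) against that mean, with all named probe sets as grey cells on a log colour scale and the 9 genes as red points. Bright probe sets lie below 0 and dim ones above it. Ccnd1, Ccnd2 and Cdkn1b lie at -1.40, -1.29 and -1.29, and Cdkn2a, Cdkn2d and Cdkn1c lie near 0.

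Among the 36 pairs of members, Ccnd1 and Ccnd2 had the most similar profiles. The root mean square distance between their profiles, each centred on its own mean, was 0.068 log2 units over 6 arrays and 0.068 without KCl replicate 1, the smallest of all pairs in both cases. The farthest pair was Cdkn1b and Cdkn2a, at 0.81 and, without that array, 0.52. Cdkn2a and Cdkn2b, the neighbours, were 0.45 apart on 6 arrays and 0.49 apart on 5.

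The same distance was measured to 13947 other genes for the 3 members that varied most, Cdkn1b, Ccnd1 and Ccnd2. Nearest to Ccnd1 were Polr1c, a subunit of RNA polymerases I and III, at 0.058, Ccnd2 itself and the orphan receptor Gprc5b at 0.069. Nearest to Ccnd2 were Polr1c at 0.053, D330041H03Rik at 0.055 and Ccnd1. For Cdkn1b they were the complex I subunit Ndufs4 at 0.085, the RNA polymerase II subunit Polr2j at 0.095 and the deaminase Dctd at 0.105. All 6 of these other genes read low on KCl replicate 1, by -1.08 to -1.38 relative to the mean of the other KCl arrays. This follows from their choice, since the distance included KCl replicate 1, on which the 3 members read low too.

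The kinases that D-type cyclins activate were read next. Of 11 G1 kinases and partners, 8 were higher with norepinephrine and 3 lower, with a median difference of 0.10, and 0 passed the test. Cdk4, the main partner of D-type cyclins, read 11.06, 11.29 and 10.94 with norepinephrine and 8.35, 11.29 and 10.71 with KCl. KCl replicate 1 was again far below the rest, and the difference of 0.98 ± 0.64 (SE) was 0.10 without it. Cdk6 differed by 0.16 ± 0.24, Cdk2, the partner of cyclin E, by -0.074 ± 0.19 and the activating phosphatase Cdc25a by -0.20 ± 0.20. With that array left out Cdk6 turned to -0.083 and Cdk2 to 0.0065, Cdc25a was at -0.36, and 5 of the 11 genes were higher, with a median of -0.04.

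Retinoblastoma proteins, E2F factors and their repressor partners receive the signal of these kinases. Of 17 such genes 12 were higher with norepinephrine, the median was 0.074 and 0 passed. Rb1 itself differed by 0.34 ± 0.25 (SE), or 0.094 without KCl replicate 1, Lin54, a DNA-binding subunit of the DREAM complex, by -0.29 ± 0.21 and E2f3 by -0.38 ± 0.35. When that array was left out Lin54 was at -0.14 and E2f3 at -0.029, and 8 of the 17 genes were higher, with a median of -0.01. Of 15 replication genes known as E2F targets, 6 were higher and 9 lower, with a median of -0.051. Without KCl replicate 1 this median lay further from 0, at -0.14, and 5 of the 15 were higher. The helicase subunit Mcm2 read 8.24, 8.35 and 8.18 with norepinephrine and 8.65, 8.50 and 8.46 with KCl. Its groups did not overlap, and it differed by -0.28 ± 0.18, or -0.22 without KCl replicate 1. The replication clamp Pcna, at 0.49 ± 0.32, and the mitotic kinase Cdk1, at 0.57 ± 0.40, stood on the other side, at 0.11 and 0.05 without KCl replicate 1.

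The list of G2 and mitosis markers had 7 of 9 genes higher with norepinephrine and a median difference of 0.26, or 0.099 without KCl replicate 1. Birc5, a subunit of the chromosomal passenger complex, differed by 0.83 ± 0.49 (SE), Aurkb, the kinase of that complex, by 0.46 ± 0.32 and Ccnb2 by 0.38 ± 0.23. Leaving out that array gave 0.20 for Birc5, 0.099 for Aurkb and 0.21 for Ccnb2. The 2 genes lower with norepinephrine were Mki67, at -0.17 ± 0.18, and Cenpf, at -0.082 ± 0.20. They stood at -0.10 and -0.14 without that array. The mean of this list was 9.41 to 9.56 on norepinephrine arrays, against 9.51, 9.27 and 8.83 for KCl replicates 2, 3 and 1. Relative to the other KCl arrays, all probe sets with means between 8 and 9 read lower on KCl replicate 1 by a median of -0.36. Those between 9 and 10 read lower by -0.64. Against the mean of KCl replicates 2 and 3, Mki67 read 0.21 and Plk1 0.29 higher on KCl replicate 1. The other measured genes of the list read lower on it. Mki67, Cenpf and Plk1 were named after their values were seen. The parts of its narrower spread, of the share of dividing cells and of RNA per cell in the low list mean were not tested.

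Genes that turn over D-type cyclins and inhibitors were represented by 15 ubiquitin ligase subunits and related genes, of which 11 were higher with norepinephrine and 0 passed. Their median was 0.13, or 0.0008 without KCl replicate 1, when 8 were higher. Fbxw7, which targets cyclin E for destruction, differed by -0.65 ± 0.33 (SE), Rbx1, the RING subunit of cullin ligases, by 0.40 ± 0.23 and Cks1b, the cofactor with which Skp2 recognises p27, by 0.37 ± 0.26. Without that array they stood at -0.30, 0.34 and 0.094.

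Regulators of the Cdkn2a locus and of the p53 arm on which p19Arf acts were read beside Cdkn2a. Of 20 measured genes 8 were higher with norepinephrine and 12 lower, with a median of -0.022, and 0 passed. Ets1, a factor known from human fibroblasts as an activator of p16 transcription, read 7.27, 7.08 and 7.20 with norepinephrine and 7.70, 7.65 and 7.63 with KCl. As for Cdkn2a, every norepinephrine array was lower, and the difference was -0.48 ± 0.17 (SE; adjusted p = 0.939, limma) and -0.46 without KCl replicate 1. Kdm2b, a demethylase known from mouse fibroblasts to repress the locus, was also lower on every norepinephrine array, at -0.27 ± 0.18. Ets2, in the same list, was higher on every norepinephrine array, at 0.22 ± 0.21, or 0.049 without KCl replicate 1. The Polycomb subunit Suz12 differed by -0.25 ± 0.20, or -0.10 without KCl replicate 1, and Mdm2, the p53 ligase that p19Arf inhibits, by -0.17 ± 0.19. Bmi1, the Polycomb repressor of Cdkn2a in mouse neural stem cells, differed by 0.16 ± 0.28, and its sign turned, to -0.13, without KCl replicate 1. Bmi1 was named for its role and Ets2 for its direction, each after its values were seen.

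Of 21 transcription factors known to act on D-type cyclin or CIP/KIP genes, 9 were higher and 12 lower, with a median of -0.028. The Notch effector Hes1 read 7.52, 7.48 and 7.21 with norepinephrine and 7.74, 7.93 and 7.65 with KCl, groups that did not overlap. It differed by -0.38 ± 0.19 (SE), the hedgehog effector Gli3 by -0.37 ± 0.25 and the Myc partner Max by 0.50 ± 0.37, which was 0.041 without KCl replicate 1. None of the 21 passed. Of the 108 pathway genes in these 7 lists, 0 met limma's adjusted threshold, 1 had an unadjusted p under 0.05 and 6 had groups that did not overlap, where all named genes gave 3.18% and 9.03%. A p that misses the threshold does not show that the treatments were alike.

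**Figure D4:**
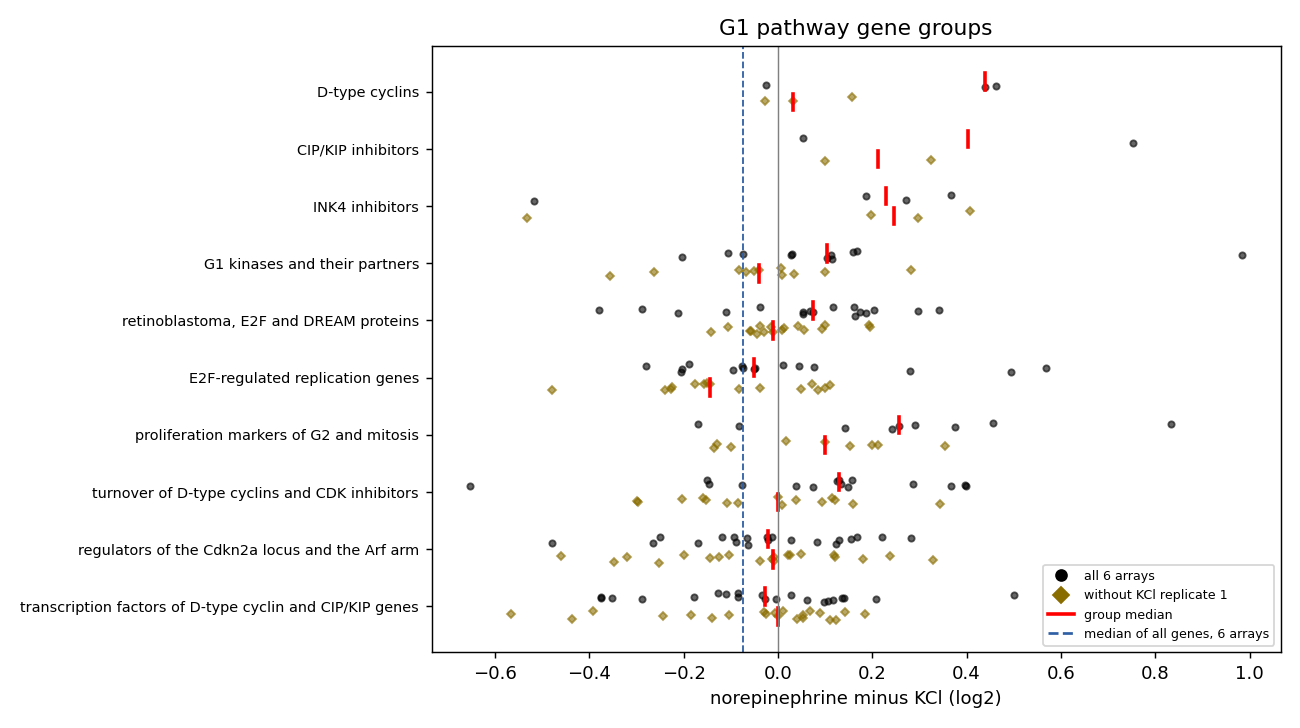
Norepinephrine minus KCl (log2) of each gene in the 3 groups of members and in 7 lists of the G1 pathway, on all 6 arrays (black circles, upper row of each group) and without KCl replicate 1 (brown diamonds, lower row). Red bars are group medians and the dashed line is the median of all genes, -0.075. Without that array the medians lie closer to 0 in all groups except the INK4 inhibitors and the E2F-regulated replication genes. The INK4 genes spread from -0.52 to 0.37 on all 6 arrays.

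Cell type markers were read on the same arrays. Among precursor markers, Vim averaged 12.17 with norepinephrine and 11.73 with KCl, Sox2 10.36 with norepinephrine and 10.00 with KCl, and Nes 8.99 with norepinephrine and 9.08 with KCl. Nes read 9.09, 8.98 and 8.90 on norepinephrine replicates 1 to 3 and 8.12, 9.70 and 9.43 on KCl replicates 1 to 3. Without KCl replicate 1 the differences were 0.28 for Vim, 0.068 for Sox2 and -0.58 ± 0.17 (SE; adjusted p = 0.705, limma) for Nes, whose groups then did not overlap. The mean of 9 such markers was 9.74 to 9.86 with norepinephrine against 9.34 to 9.73 with KCl. For 8 astrocyte markers it was 9.35 to 9.56 with norepinephrine against 8.27 to 8.90 with KCl. Groups were apart with norepinephrine higher in 5 of the 8, against 4.44% of all named genes. S100b was the 1 astrocyte marker that was lower with norepinephrine, at -0.29 ± 0.19 (SE). The astrocyte filament gene Gfap read 8.11, 8.81 and 8.02 with norepinephrine and 6.97, 6.12 and 6.18 with KCl. It differed by 1.89 ± 0.30 (SE; adjusted p = 0.774, limma), and by 2.17 ± 0.24 without KCl replicate 1, where it passed the threshold (adjusted p = 0.045, limma). The mean of 6 neuronal markers was 7.75 to 8.02 with norepinephrine against 7.53 to 7.64 with KCl. Snap25, at 1.03 ± 0.27 (SE), and Tubb3, at 0.47 ± 0.18, were higher on every norepinephrine array. Map2 was lower on every one, at -0.33 ± 0.18. In Dcx, Rbfox3 and Syt1, the other neuronal markers, the groups overlapped, with differences of 0.15, 0.081 and 0.093. The neuronal mean thus includes Snap25, whose difference was the largest of that list. The single markers in this paragraph were named after their values were seen. Means of 8 microglia markers were 6.06 to 6.25 with norepinephrine and 6.10 to 6.81 with KCl, highest on KCl replicate 1. For 9 endothelial and pericyte markers they were 6.11 to 6.34 with norepinephrine and 6.03 to 6.68 with KCl. For 7 oligodendrocyte lineage markers they were 8.21 to 8.29 with norepinephrine and 8.00 to 8.35 with KCl, and for 4 ependymal markers 6.62 to 6.88 with norepinephrine and 6.67 to 7.11 with KCl. The list means of precursor, astrocyte and neuronal markers did not overlap between treatments, though those of single genes in each list did. The list means of precursor markers came closest, at 9.739 on norepinephrine replicate 3 and 9.727 on KCl replicate 2. KCl replicate 1 had the highest KCl mean for microglia, endothelial, oligodendrocyte and ependymal markers, and the lowest for precursors and astrocytes. Of all named probe sets, those with means between 6 and 7 read higher on it by a median of 0.50. Those between 9 and 10 read lower by -0.64. Markers lower with norepinephrine numbered 3 of 9 for precursors, 1 of 8 for astrocytes and 1 of 6 for neurons. The part of these cell types in the differences of Cdkn2a and Cdkn2c was not tested.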

How the data were processed

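RNA of 6 samples, 3 per treatment, was measured on 1 whole-transcript array each, after TRIzol extraction and labelling with the Applause WT-Amp ST kit, per the labels' protocols. The values the authors deposited are log2 expression values per probe set, made with Partek and RMA per the submitters' processing notes, with versions, settings and genome build not given in the sources used here. Signal over background could not be assessed without scanner files, and the number of arrays limits the precision.

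Of 34760 probe sets, 21640 had 1 gene symbol in the platform annotation, 1321 several and 11799 none. The named ones were fitted with lmFit and eBayes of limma 3.58.1 under R 4.3.3 (two-sided, no covariate), with Benjamini-Hochberg adjustment over all 21640 and a threshold of adjusted p under 0.05. The fit was tested on simulated data. Members and pathway lists were chosen with earlier results of these data known. Besides members, the 3 genes of smallest p per pathway list and Cdk4, Cdk6, Cdk2, Rb1 and Mdm2 are named by rule. Bmi1, Ets2, Mki67, Cenpf, Plk1, Vim, Sox2, Nes, Gfap, S100b, Snap25, Tubb3, Map2, Dcx, Rbfox3 and Syt1 are named outside it. For members above the 30th percentile of brightness, nearest genes were named for the 3 that varied most. Trp53 was to be named too and is not analysed here. Alternatives changed normalization, centring, filters, variance moderation, array weights, probe set choice and arrays used, and added a replicate block.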

Additional observations from a re-analysis of the deposited data

How the results depend on the processing

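No member passed in the main fit on all 6 arrays, so the alternatives bear on directions. Filters, variance moderation and the replicate block leave a gene's difference unchanged. The median over probe sets does so too for a gene with 1 probe set. Only the other alternatives could turn a sign. Over 15 alternatives, Cdkn2a ranged from -0.61 to -0.37 (14 alternatives, since a filter at the median left it out), Cdkn2c from 0.24 to 0.47, Cdkn2b from 0.13 to 0.41, Cdkn1b from 0.32 to 1.04 and Cdkn2d from 0.074 to 0.28, none with a change of sign. Leaving out each array in turn gave -0.028 to 0.73 for Ccnd1, -0.13 to 0.16 for Ccnd3 and -0.031 to 0.10 for Cdkn1c, where the sign turned for Ccnd1 without KCl replicate 1, for Ccnd3 without KCl replicate 1 or norepinephrine replicate 2, and for Cdkn1c without KCl replicate 3. Centring arrays gave 0.012 for Ccnd3. Array weights gave -0.082 for Ccnd1, -0.011 for Ccnd2 and 0.17 for Ccnd3. A further quantile normalization without KCl replicate 1, chosen after seeing the data, gave -0.072 for Ccnd1, -0.0071 for Ccnd2 and 0.16 for Ccnd3. Probe sets past the adjusted threshold numbered 0 on all 6 arrays (743 at an unadjusted p under 0.05), 0 to 4 with an array left out, 1 with that quantile normalization and 1454 with array weights. The default weighting method did not converge, and the gene-by-gene method used in its place gave weights from 0.158 for KCl replicate 1 to 6.76 for KCl replicate 3. Under these weights Cdkn2c passed at 0.41 (adjusted p = 0.0357, limma), the lowest over its 15 alternatives, where the highest was 1.00. The retinoblastoma and E2F list median ranged from -0.0103 without KCl replicate 1 to 0.18 without KCl replicate 2. With the replicate block, 0 probe sets passed. Correlations of the deviations of same-numbered samples were 0.301, 0.626 and 0.0852 for numbers 1 to 3. Those of differently numbered samples ran from -0.473 to 0.311. The labels do not say that a shared number marks a shared mouse or culture, so the numbers were not taken as pairs. The causes of these shifts were not tested.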
